A study of Homo sapiens with 12 samples.

Results

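The genes described here belong to families known as cancer-testis antigens: MAGEA, MAGEB, MAGEC, SPANX, CTAG, GAGE, XAGE, PAGE and SSX, together with the PNMA family of paraneoplastic antigens. They were taken from the raw count table by gene name and kept where at least 3 libraries held 10 counts or more. Only names ending in P plus digits were dropped as pseudogenes (2 rows), so that rows such as SSX11P stayed. Of 63241 genes in the table, 112 then matched by name and 53 met the count rule. RNA was measured in ONS76 and DAOY, established human medulloblastoma cell lines labelled wild type, under fluid shear stress (FSS) or static. The 4 groups, with 3 libraries each, were ONS76 FSS, ONS76 static, DAOY FSS and DAOY static. FSS was applied by gyrating the plates at 100 rpm for 18 h on an orbital shaker, and the static controls were kept for the same time. Both the FSS and the static cells were grown in artificial cerebrospinal fluid. The submitters call the 3 libraries of a group biological replicates, and each line is a single culture of tumour origin, so that line and tumour cannot be told apart.

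Cancer-testis genes are normally transcribed in male germ cells and are kept silent in most adult tissues, largely by methylation of CG pairs in their promoters. Many are transcribed again in tumours, where their peptides can be recognised by T cells. Most lie on the X chromosome in clusters of recently duplicated copies, so that several copies can be nearly identical in sequence. MAGE proteins bind E3 ubiquitin ligases and steer them to substrates, whereas CTAG1B encodes the antigen NY-ESO-1. SPANX proteins are found in the nucleus of sperm cells, and PNMA proteins resemble the Gag protein of retrotransposons.

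Promoters of 4 members that separate the lines or respond to FSS are printed below, from RefSeq on GRCh38.p14, with 250 bases before and 50 after the annotated start. Each is read 5′ to 3′ on the strand of its gene, and capitals mark CG pairs. MAGEA3 (chrX:152698544-152698843, plus strand) encodes a MAGE antigen that was abundant in both lines. The MAGEA6 window (chrX:152769640-152769939, minus strand) has 0 differences from it. PNMA5 (chrX:152994067-152994366, minus strand) was abundant in ONS76, while SPANXB1 (chrX:141002344-141002643, plus strand) and MAGEB2 (chrX:30215313-30215612, plus strand) were abundant in DAOY.
MAGEA3 and MAGEA6: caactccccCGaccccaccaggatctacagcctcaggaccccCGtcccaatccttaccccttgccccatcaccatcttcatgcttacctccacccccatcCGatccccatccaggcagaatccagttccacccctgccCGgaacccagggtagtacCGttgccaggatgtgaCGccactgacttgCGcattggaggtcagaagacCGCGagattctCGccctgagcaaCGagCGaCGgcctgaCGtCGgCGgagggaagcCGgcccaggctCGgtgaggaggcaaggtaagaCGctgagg
PNMA5: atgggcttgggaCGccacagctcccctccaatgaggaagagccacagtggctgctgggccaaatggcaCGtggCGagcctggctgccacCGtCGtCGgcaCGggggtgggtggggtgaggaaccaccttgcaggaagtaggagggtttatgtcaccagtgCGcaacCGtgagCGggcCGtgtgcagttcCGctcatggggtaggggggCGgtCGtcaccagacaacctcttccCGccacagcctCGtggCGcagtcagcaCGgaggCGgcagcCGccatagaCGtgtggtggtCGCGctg
SPANXB1: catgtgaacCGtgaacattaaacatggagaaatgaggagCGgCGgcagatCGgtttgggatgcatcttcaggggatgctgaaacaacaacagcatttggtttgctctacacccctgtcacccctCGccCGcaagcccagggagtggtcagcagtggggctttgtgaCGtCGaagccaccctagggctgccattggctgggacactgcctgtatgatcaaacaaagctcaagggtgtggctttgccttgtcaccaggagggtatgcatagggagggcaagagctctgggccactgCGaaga
MAGEB2: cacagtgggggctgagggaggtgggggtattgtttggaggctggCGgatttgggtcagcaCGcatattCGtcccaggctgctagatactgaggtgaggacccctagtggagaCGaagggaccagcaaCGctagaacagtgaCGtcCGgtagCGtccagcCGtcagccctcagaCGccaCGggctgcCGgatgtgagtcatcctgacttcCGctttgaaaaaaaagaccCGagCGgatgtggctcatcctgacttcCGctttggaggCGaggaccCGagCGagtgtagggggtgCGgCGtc

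The MAGEA3 and MAGEA6 window held 19 CG pairs, the PNMA5 window 23, the MAGEB2 window 21 and the SPANXB1 window 9. RefSeq promoters were matched for 44 members, whose windows held a median of 13 CG pairs (range 1 to 43), against 14 over all 27305 promoters. The motif CCGGAA, a form of the site bound by ETS factors, was searched on both strands, and other forms of that site were not. It was found in 3 of the 44 windows (6.82%), those of MAGEA3, MAGEA6 and MAGEB6, against 17.6% of all promoters. In MAGEA3 and MAGEA6 it stood at position -113 from the start. The motif GGGCGG, to which SP1 binds, was found in 16 of 44 windows (36.4%), against 44.6% of all promoters. Neither motif contains the other, and a match describes letters only. Matched members were also grouped by the line in which they reached 1 TPM (transcripts per 1000000) in static cells. The 18 of DAOY alone had a median of 14 CG pairs and the 17 of both lines 13. The 3 of ONS76 alone, PNMA5 (23) and the near-identical MAGEA9 and MAGEA9B (10 each), had a median of 10. No CTAG promoter was matched.

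By family, the rule kept 11 of 13 GAGE rows, 10 of 15 MAGEA rows, 8 of 11 MAGEB rows, 1 of 3 MAGEC rows, 8 of 11 PNMA rows, 3 of 3 CTAG rows, 3 of 6 PAGE rows, 3 of 5 XAGE rows, 2 of 10 SPANX rows and 1 of 20 SSX rows. CTAGE4, CTAGE15 and SSX2IP matched by name only: CTAGE genes are not part of the CTAG family, and SSX2IP encodes a centrosomal protein that binds SSX2. Of the 52 members found by identifier in GENCODE 29, 46 lie on the X chromosome. PNMA6B is annotated there as an unprocessed pseudogene. Just inside the rule was SSX2B, an SSX repressor gene, with 8, 5 and 10 counts in DAOY FSS and 10, 4 and 12 in DAOY static; it was too low to be tested. Just outside were MAGEA5P and SSX19P, each with 10 counts or more in 2 libraries. MAGEA5P had 9, 23 and 19 counts in ONS76 FSS and 5, 3 and 5 in ONS76 static. SSX19P had 6, 17 and 6 counts in DAOY FSS and 11, 9 and 3 in DAOY static. PAGE1 reached 10 counts in 1 library alone, which held 20. The other 59 rows fell below the rule, and 25 of them, among them MAGEC2, MAGEA10, MAGEA12, SPANXA1 and SPANXC, were at 0 in all 12 libraries. A 0 in this table is not by itself silence: PCBP1, an RNA-binding protein gene expressed in cells generally and picked out here after its values were seen, was also at 0 in all 12. Of 23 such rows with annotated exons, 19 overlapped no exon of another gene.

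All 3 members that reached 10 counts in 3 libraries of a single group had to differ between groups by the rule, so nothing is read from their calls. MAGEB17 had 18, 13 and 14 counts in DAOY FSS, against 2, 2 and 0 in DAOY static. XAGE3 had 0, 6 and 0 counts in DAOY FSS, against 14, 19 and 13 in DAOY static. MAGEB18 had 17, 19 and 15 counts in ONS76 FSS, against 9, 8 and 9 in ONS76 static. In the same way, 19 members reached 10 counts in both DAOY groups alone and 2 in both ONS76 groups alone, whereas 26 did so in all 4 groups.

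Near-identical copies limit what can be said of single genes, since reads from one copy may be given to another. Of 52 members with transcripts in GENCODE 29, 21 had every 100-base stretch to themselves, 20 had under 50% of stretches to themselves, and 5 (GAGE12C, GAGE12D, GAGE12G, GAGE2E and XAGE1A) had none. SPANXB1 was 98.9% distinct, and PNMA1, PNMA2, PNMA3, PNMA5, PAGE5, MAGEB2 and MAGEC1 were 100% distinct. MAGEA3 was 65.1% and MAGEA6 67.0% distinct, CTAG2 75.5%, and CTAG1A and CTAG1B 14.7% and 15.1%. The XAGE1A to XAGE1B count ratio stayed between 0.981 and 1.005 and that of CTAG1A to CTAG1B between 1.024 and 1.062, in the 6 libraries where each pair passed 100 counts. Values of single GAGE, CTAG1, XAGE1, MAGEA2 and MAGEA9 copies are therefore uncertain, and the FSS results give sums over copies. Single values of CTAGE15 (4.62% distinct), PNMA6A (52.6%) and PNMA6B (9.08%) are uncertain too, with no sum over these copies alone. CTAGE4 had no transcript in GENCODE 29, so its distinct share is not known.

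**Figure D1:**
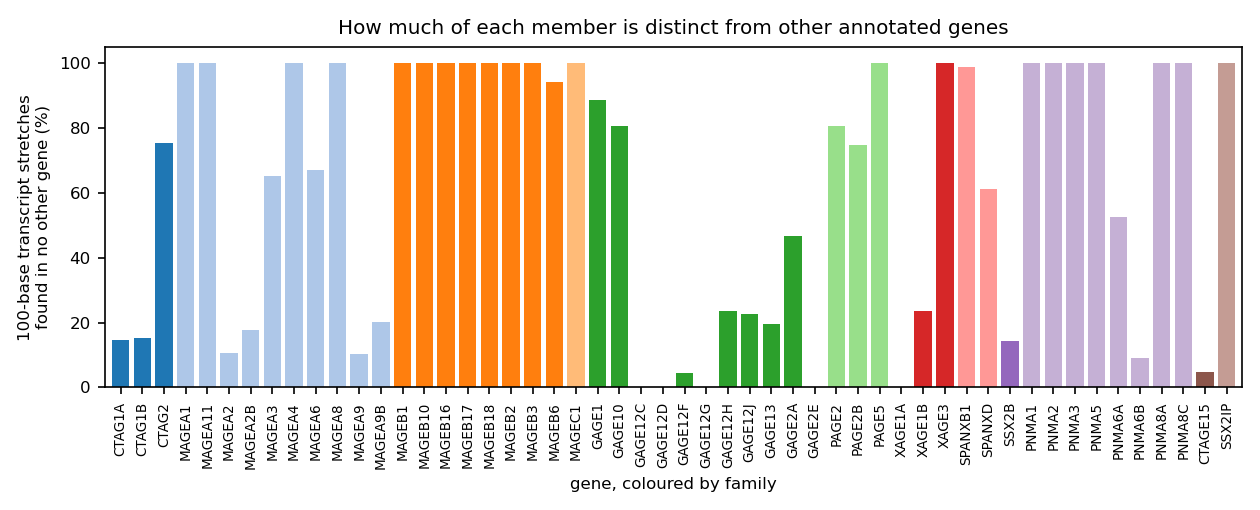
Share of 100-base transcript stretches (percent, vertical axis) of each member that no other annotated gene holds, with the members along the horizontal axis coloured by family. Of the 11 GAGE bars, 4 lie at 0%, while SPANXB1 (98.9%) and the PNMA1, PNMA2, PNMA3 and PNMA5 bars (100%) are distinct.

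Library totals were 38090231 to 49282743 counts, and the members took 0.258% to 0.274% of them in ONS76 and 0.159% to 0.191% in DAOY. Of 20 medulloblastoma and granule lineage markers, 6 in ONS76 and 11 in DAOY reached 1 TPM, and NEUROD1 and SOX2 were at 0 in all libraries. Their summed level was 48.8 to 53.6 TPM in ONS76 FSS and 42.3 to 44.0 TPM in ONS76 static, and 173.5 to 187.6 TPM in DAOY FSS against 140.7 to 147.9 TPM in DAOY static. Of 20 germ cell markers, PRM1, PRM2, TNP1, SYCP3 and ODF1 were at 0 in all 12 libraries. Summed germ cell markers were 2.67 to 4.61 TPM in ONS76 FSS and 3.77 to 4.29 TPM in ONS76 static, and 19.9 to 22.6 TPM in DAOY FSS against 16.9 to 19.2 TPM in DAOY static. Fibroblast and mesenchymal markers summed to 14.3 to 15.0 TPM in ONS76 FSS and 8.17 to 11.2 TPM in ONS76 static, and to 2691 to 2907 TPM in DAOY FSS against 2360 to 2642 TPM in DAOY static. Static ONS76 libraries 1 and 2 stood apart by cardiac myosin: MYH6 had 15.0, 6.21 and 0.0245 TPM in static ONS76 libraries 1, 2 and 3, against at most 0.126 TPM in any other library. The part of these markers in the results on the members was not tested, and in bulk RNA fewer cells of a type and less RNA per cell cannot be told apart. Without static ONS76 libraries 1 and 2 some calls changed. Values are then given for CTAG2, MAGEA3 and MAGEA6, and other changed calls are named or counted.

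The lines shared some of these families and differed in others. The GAGE genes and MAGEA2, MAGEA3 and MAGEA6 were present in both lines and, except for GAGE2A, called higher in static ONS76. The CTAG genes and PNMA5 reached 1 TPM in static ONS76 alone, and the SPANX, XAGE and MAGEC1 genes, 5 MAGEB genes and 5 PNMA genes in static DAOY alone. At a mean of 1 TPM or more in static cells, 19 members were present in both lines, 21 in DAOY alone, 6 in ONS76 alone and 7 in neither. The sum over all 53 members was 6098 ± 337 TPM in ONS76 FSS and 5958 ± 45.9 TPM in ONS76 static, and 4078 ± 48.0 TPM in DAOY FSS against 4871 ± 729 TPM in DAOY static (SD, n = 3). The wide DAOY static spread comes with 1 library, described below with the GAGE genes.

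**Figure D2:**
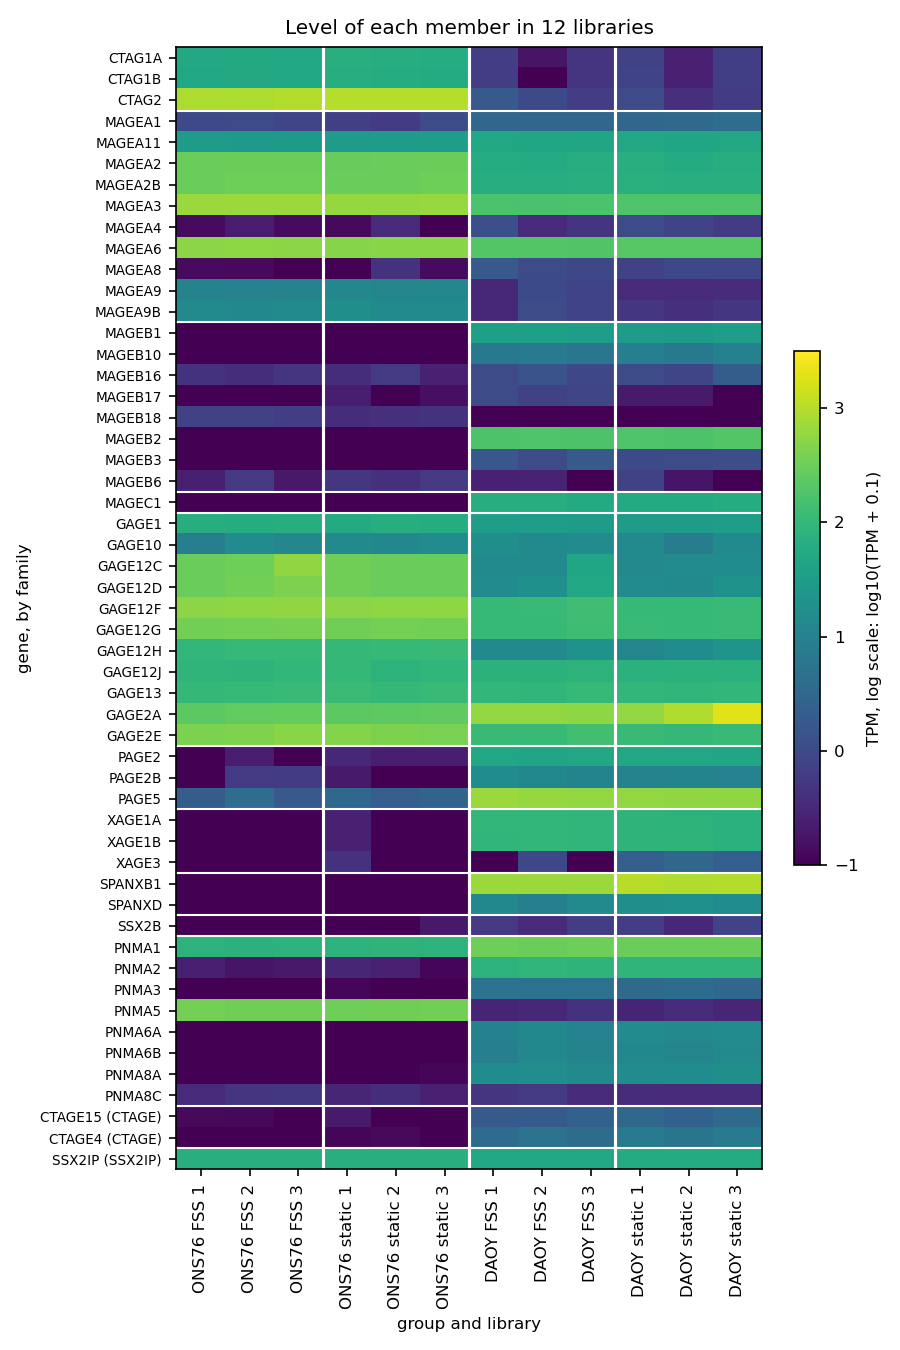
Level of each member (rows, grouped by family) in the 12 libraries (columns, FSS left of static in each line), as colour on a scale of log10(TPM + 0.1). The CTAG and PNMA5 rows are brighter in the ONS76 columns, and the SPANX, XAGE1A, XAGE1B, MAGEC1, MAGEB1, MAGEB2 and PAGE5 rows are brighter in the DAOY columns.

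Of the CTAG genes, which encode NY-ESO-1 and its relative LAGE-1, CTAG2 was the most abundant member of ONS76. Its level was 892, 884 and 948 TPM in ONS76 FSS, 1012, 1012 and 992 TPM in ONS76 static, 1.67, 0.925 and 0.563 TPM in DAOY FSS, and 1.01, 0.321 and 0.5 TPM in DAOY static. All ONS76 libraries lay far above all DAOY libraries. Static ONS76 was higher than static DAOY by 11.06 on the log2 scale (SE 0.11, edgeR quasi-likelihood test with Benjamini-Hochberg adjustment, adjusted p = 5.20e-38). CTAG1A and CTAG1B averaged 63.0 ± 1.90 and 61.5 ± 1.98 TPM in static ONS76 and 0.473 ± 0.279 and 0.478 ± 0.282 TPM in static DAOY (SD, n = 3), a log2 difference of 7.44 and 7.39. CTAG2 lies at chrX:154651972-154653579, CTAG1A at chrX:154585143-154586821 and CTAG1B at chrX:154617609-154619282, in GENCODE 29 coordinates on GRCh38.

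The MAGEA genes encode adaptors of ubiquitin ligases; MAGEA3 and MAGEA6 bind the ligase TRIM28 and target AMPK for degradation. MAGEA3 (chrX:152698752-152702347) had 653, 670.3 and 665 TPM in ONS76 FSS and 623, 620.0 and 639 TPM in ONS76 static. MAGEA3 was at 166, 163 and 170.5 TPM in DAOY FSS and at 184, 182 and 183.5 TPM in DAOY static. MAGEA6 (chrX:152766136-152769747) had 520.2, 538 and 519 TPM in ONS76 FSS and 488, 492 and 507 TPM in ONS76 static, 195, 198 and 193 TPM in DAOY FSS, and 216, 212 and 216 TPM in DAOY static. MAGEA3 was the second member of ONS76 by TPM, and every ONS76 library held more of both genes than every DAOY library. Static ONS76 exceeded static DAOY by 2.19 for MAGEA3 (SE 0.040) and 1.62 for MAGEA6 (SE 0.038) on the log2 scale. MAGEA2 was at 298 ± 7.99 TPM in static ONS76 and 63.7 ± 3.61 TPM in static DAOY, and MAGEA9 at 11.5 ± 0.744 TPM in static ONS76 and 0.264 ± 0.010 TPM in static DAOY (SD, n = 3). Members MAGEA1, MAGEA4, MAGEA8 and MAGEA11 were instead lower in static ONS76. MAGEA11, a coactivator of the androgen receptor, showed the narrowest gap, with 30.4 ± 1.60 TPM in static ONS76 and 47.1 ± 1.72 TPM in static DAOY.

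PNMA5, whose product is one of the Gag-like PNMA proteins, was the only PNMA gene called higher in static ONS76, while 6 were called lower and PNMA8C was not called. It had 358, 334 and 339 TPM in ONS76 FSS, 322, 329 and 346 TPM in ONS76 static, 0.197, 0.220 and 0.348 TPM in DAOY FSS, and 0.192, 0.273 and 0.206 TPM in DAOY static. The static lines differed by 10.93 on the log2 scale (SE 0.085, edgeR adjusted p = 1.31e-40). PNMA2, whose protein is a target of antibodies in paraneoplastic encephalitis, ran the other way, at 0.123 ± 0.096 TPM in static ONS76 and 88.9 ± 0.157 TPM in static DAOY. PNMA1, a paraneoplastic antigen of brain and testis, was found in both lines, at 82.2 ± 2.63 TPM in static ONS76 and 298 ± 6.15 TPM in static DAOY (SD, n = 3). In DAOY it had 320.4, 310.4 and 326.5 TPM in FSS and 297, 292 and 304 TPM in static. PNMA3, PNMA6A, PNMA6B and PNMA8A were at 0.0066 TPM or less in static ONS76 and at 3.41 to 15.9 TPM in static DAOY.

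DAOY carried families with next to no counts in ONS76. SPANXB1 (chrX:141002591-141003706), a sperm nuclear protein gene, was at 0 in all 6 ONS76 libraries. It had 662, 671 and 669.9 TPM in DAOY FSS and 1019, 927 and 974 TPM in DAOY static. Against a floor of 3 counts over the static ONS76 group, static DAOY was at least 5023-fold higher. By the same floor, static DAOY was at least 3273-fold higher for MAGEB2, a MAGE antigen of the X short arm, and at least 2755-fold higher for MAGEC1, which encodes the CT7 antigen. MAGEB1, MAGEB3, MAGEB10, PNMA6A, PNMA6B and SPANXD were also at 0 in all 6 ONS76 libraries, with bounds of at least 23.2-fold (MAGEB3) to 626-fold (MAGEB1). MAGEB2 was at 178 ± 5.63 TPM in DAOY FSS and 184 ± 9.83 TPM in DAOY static, and MAGEC1 at 60.9 ± 3.38 TPM in DAOY FSS and 58.6 ± 2.58 TPM in DAOY static (SD, n = 3).

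PAGE5, a gene of the PAGE family related to GAGE, had 2.05, 3.95 and 1.74 TPM in ONS76 FSS, 3.09, 2.09 and 2.65 TPM in ONS76 static, 654, 605.5 and 598 TPM in DAOY FSS, and 579.6, 561 and 555 TPM in DAOY static. The static lines differed by -7.32 on the log2 scale, ONS76 over DAOY (SE 0.10). XAGE1A and XAGE1B, copies of 1 gene, were at 0.0535 TPM or less on average in static ONS76 and at 80.3 ± 4.71 and 80.7 ± 5.01 TPM in static DAOY (SD, n = 3). GAGE genes, whose products are small acidic germ cell proteins, were found in both lines, with 10 of 11 higher in static ONS76. GAGE12F had 532, 551 and 569.5 TPM in ONS76 FSS and 518, 534 and 542 TPM in ONS76 static, and averaged 106 ± 5.10 TPM in static DAOY. GAGE2E, the other GAGE gene among the leading 5 of ONS76, had 404, 427 and 500.3 TPM in ONS76 FSS and 467, 407 and 400.0 TPM in ONS76 static. The exception was GAGE2A, at 244 ± 13.5 TPM in static ONS76 and 1152 ± 714 TPM in static DAOY (SD, n = 3). In DAOY it had 588, 585.5 and 546 TPM in FSS and 597, 902 and 1957 TPM in static, so that the static libraries spread widely.

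Between the static lines, 22 of 52 tested members were higher and 27 were lower in ONS76, against 37.9% and 43.2% of all 19631 genes tested. MAGEB6, MAGEB17 and PNMA8C were not called. Because 24 members met the count rule through groups of 1 line alone, these counts are a description. MAGEB18 was at 0 in all 6 DAOY libraries.

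Under FSS, the members called as changed in ONS76 were the 3 CTAG genes, all lower. None of 52 tested members rose, against 14.1% of all genes, and 3 fell, against 13.9% (28.0% of all genes changed in either direction). The 52 include 9 members at 0 in all ONS76 libraries, which could not be called. Among the 24 members at 1 CPM or more in ONS76, 0 rose and 3 fell, against 19.6% and 19.4% of 12907 genes at that level, and the median absolute log2 fold change was 0.0601, against 0.156. In counts per 1000000 (CPM, on TMM-scaled library sizes), CTAG2 had 324, 331 and 361 in ONS76 FSS and 390.1, 377 and 377 in ONS76 static. All 3 FSS libraries lay below all static libraries. The log2 fold change was -0.17 (SE 0.047, edgeR adjusted p = 0.00611). CTAG1A had 18.9, 20.3 and 19.4 CPM in ONS76 FSS and 25.4, 23.7 and 23.6 CPM in ONS76 static, a log2 fold change of -0.31 (SE 0.095, edgeR adjusted p = 0.0123). CTAG1B, its near-identical copy, had 18.4, 19.1 and 18.5 CPM in ONS76 FSS and 24.6, 22.9 and 22.8 CPM in ONS76 static, with a log2 fold change of -0.33 (SE 0.10, edgeR adjusted p = 0.0153). The summed counts of CTAG1A and CTAG1B fell by 0.32 on the log2 scale (edgeR adjusted p = 0.00485), and those of all CTAG genes by 0.19 (adjusted p = 0.00902).

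The 3 CTAG calls were lost on TPM with limma, where the CTAG2 adjusted p was 0.637. That fit takes the spread of a gene from all 4 groups, near-floor DAOY libraries included, and the effect of this was not tested. On TPM, CTAG2 still lay lower in every ONS76 FSS library (892, 884 and 948) than in every static one (1012, 1012 and 992). The calls were also lost without static ONS76 libraries 1 and 2, where the CTAG2 log2 fold change was -0.15. They were lost without ONS76 FSS library 1 (CTAG2 -0.14, adjusted p = 0.0525), and the CTAG sum was lost without the same library (-0.15, edgeR adjusted p = 0.0573). CTAG1A (-0.27, edgeR adjusted p = 0.0759) and CTAG1B (-0.29, adjusted p = 0.0849) were also lost without static ONS76 library 1, and CTAG1B without FSS library 3 (-0.32, adjusted p = 0.0517). At an unadjusted p under 0.05, 1 member was higher and 4 were lower in ONS76 FSS. Libraries did not overlap for 9 members below and 1 member above static, against 19.1% and 19.5% of all genes. The member above static was MAGEB18, whose direction the count rule fixed, so nothing is read from it.

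The MAGEA, GAGE and PNMA sums of ONS76 were not called. Their summed counts averaged 1303 ± 38.7, 613 ± 77.6 and 493.5 ± 9.71 CPM in ONS76 FSS and 1274 ± 30.9, 586 ± 14.8 and 490.4 ± 14.9 CPM in ONS76 static (SD, n = 3), with log2 fold changes of 0.03, 0.07 and 0.01. The MAGEA2/MAGEA2B sum was not called in either line (0.01 in ONS76 and -0.05 in DAOY). MAGEA3 had 420.4, 445 and 449.6 CPM in ONS76 FSS and 426, 409.8 and 431 CPM in ONS76 static, and the groups overlapped. On TPM the FSS libraries of MAGEA3 and MAGEA6 lay above the static ones, and limma on log2(TPM + 1) called both as higher (log2 0.08 for each), whereas the count test did not (0.05 and 0.06).

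**Figure D3:**
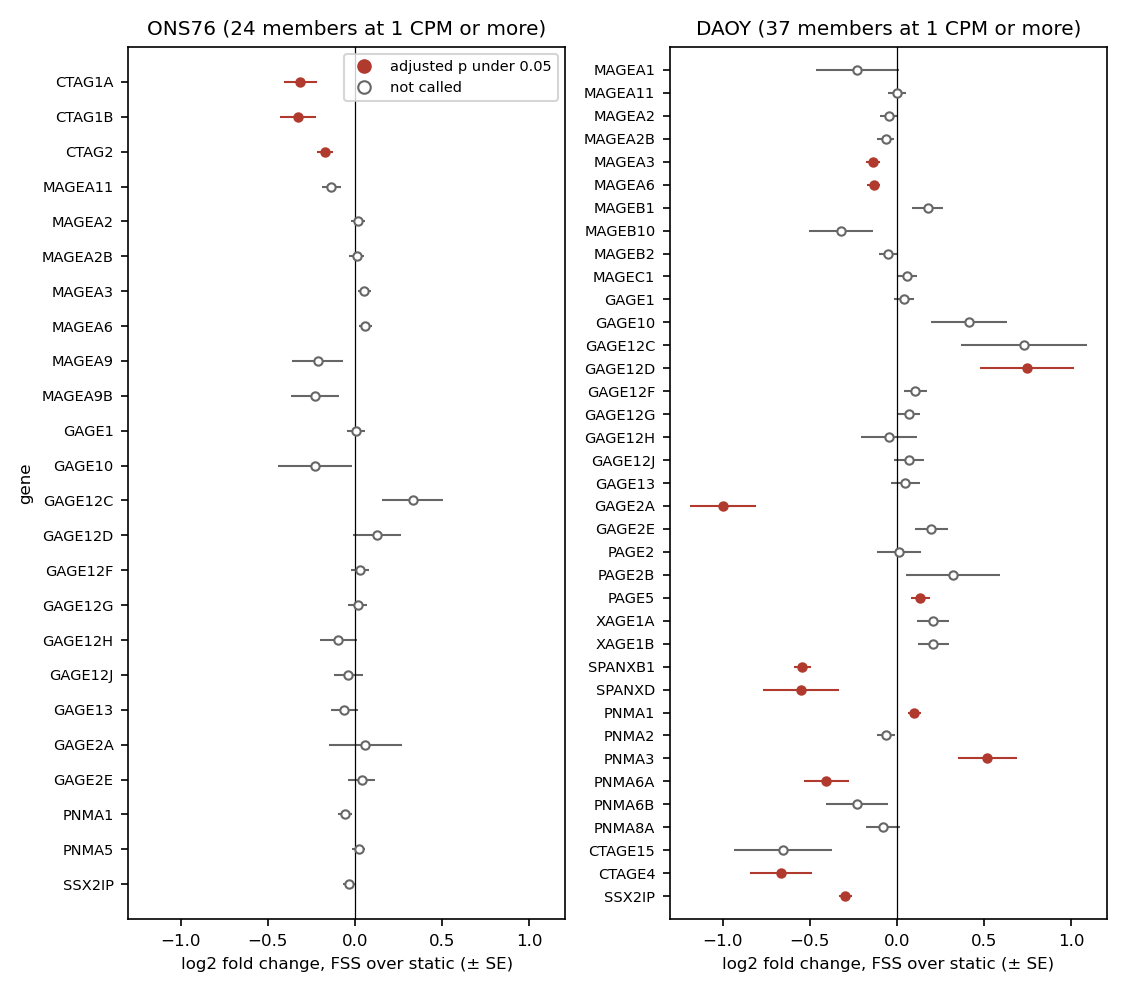
Log2 fold change of FSS over static (horizontal axis, points with SE bars) for the members at 1 CPM or more in ONS76 (left) and DAOY (right); filled points passed an adjusted p under 0.05 in edgeR and open points did not. The ONS76 points lie near 0 except CTAG1A (-0.31), CTAG1B (-0.33) and the uncalled GAGE12C (0.33), while the DAOY points spread wider, from GAGE2A (-0.998) to GAGE12D (0.75).

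In DAOY, the SPANX genes, MAGEA3, MAGEA6 and SSX2IP fell under FSS, and PNMA1, PNMA3 and PAGE5 were among those that rose. Of 52 tested members, 6 rose, against 19.5% of all genes, and 9 fell, against 20.1% (39.7% of all genes changed in either direction). As shares of the tested members the calls are 11.5% and 17.3%. They include MAGEB17 among the risen and XAGE3 among the fallen, whose direction the count rule fixed; without these and MAGEB18, 5 of 49 rose and 8 fell. Without CTAGE4, CTAGE15 and SSX2IP in place of those, 6 of 49 rose and 7 fell. Among the 37 members at 1 CPM or more in DAOY, 4 rose and 8 fell, against 23.5% and 25.7% of 14736 genes at that level. Their median absolute log2 fold change was 0.176, against 0.213. DAOY FSS libraries lay above all static libraries for 11 members and below them for 11, against 24.8% and 25.1% of all genes. MAGEB17 is among those above and XAGE3 among those below, and the count rule fixed both.

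SPANXB1 had 89.6, 88.5 and 89.8 CPM in DAOY FSS and 138, 123 and 129 CPM in DAOY static. Every FSS library lay below every static library, with a narrow spread in FSS. The log2 fold change was -0.54 (SE 0.047, edgeR adjusted p = 2.29e-10), and it ranged from -0.58 to -0.50 over all alternative settings, with the call held in each. SPANXD (chrX:141697411-141698739), a related gene further along the X chromosome, had 2.48, 1.66 and 2.64 CPM in DAOY FSS and 3.37, 3.56 and 2.97 CPM in DAOY static. Its groups did not overlap either, with a log2 fold change of -0.55 (SE 0.22, edgeR adjusted p = 0.0464). With the replicate number as a block this call was lost (edgeR adjusted p = 0.0614), as it was without any 1 of the 6 DAOY libraries except FSS library 3 (adjusted p = 0.0564 to 0.232, log2 -0.63 to -0.38). The SPANX sum, over all SPANX rows, fell by 0.54 (edgeR adjusted p = 8.21e-11).

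MAGEA3 and MAGEA6 fell slightly but evenly in DAOY. MAGEA3 had 84.8, 81.2 and 86.4 CPM in DAOY FSS and 93.9, 91.3 and 92.0 CPM in DAOY static. MAGEA6 had 99.8, 98.6 and 98.0 CPM in DAOY FSS and 110.2, 106 and 108 CPM in DAOY static. Neither gene's groups overlapped. The log2 fold changes were -0.14 (SE 0.040, edgeR adjusted p = 0.00645) and -0.13 (SE 0.038, adjusted p = 0.00547), and both calls held under all alternative settings. The sum of both genes fell by 0.13 (edgeR adjusted p = 0.00364). The sum over all MAGEA rows fell by 0.09 (adjusted p = 0.0418); that call was lost with upper-quartile scaling (-0.07, edgeR adjusted p = 0.134) and without DAOY FSS library 2 or 3 or static library 1 or 3 (adjusted p = 0.0562 to 0.152). MAGEA9, a testis antigen gene, was low in DAOY, at 0.115, 0.480 and 0.368 CPM in DAOY FSS and 0.134, 0.136 and 0.141 CPM in DAOY static. These groups overlapped through FSS library 1, and the log2 fold change of 1.24 (SE 0.43, edgeR adjusted p = 0.0197) was lost without DAOY FSS library 2 (0.79, adjusted p = 0.214) or 3 (1.15, adjusted p = 0.0613) and without static library 1 or 2 (adjusted p = 0.0523 and 0.0504). Its near-identical copy MAGEA9B, which shares 89.7% of the MAGEA9 stretches, had 0.115, 0.520 and 0.368 CPM in DAOY FSS and 0.223, 0.159 and 0.212 CPM in DAOY static and was not called (0.78, edgeR adjusted p = 0.128). The sum of both copies was higher by 0.99 (edgeR adjusted p = 0.0180), a call lost without DAOY FSS library 2 (0.52, adjusted p = 0.294) or 3 (0.92, adjusted p = 0.0595) or static library 2 (0.90, edgeR adjusted p = 0.0659). In ONS76 MAGEA9 had 6.81, 6.69 and 7.20 CPM in FSS and 8.70, 7.42 and 7.86 CPM in static, with no overlap and no call.

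PNMA genes moved both ways in DAOY. PNMA3 had 5.32, 5.00 and 5.15 CPM in DAOY FSS and 3.66, 3.99 and 3.13 CPM in DAOY static, with no overlap and a log2 fold change of 0.52 (SE 0.17, edgeR adjusted p = 0.0144). PNMA1 (chr14:73711783-73714372) had 242, 228.5 and 244 CPM in DAOY FSS and 224, 216 and 225 CPM in DAOY static, a log2 fold change of 0.10 (SE 0.037, edgeR adjusted p = 0.0288). PNMA6A, a Gag-like gene next to PNMA3 on the X chromosome, had 6.20, 7.98 and 6.39 CPM in DAOY FSS and 9.52, 8.46 and 9.29 CPM in DAOY static. Its groups did not overlap, and its log2 fold change was -0.40 (SE 0.13, edgeR adjusted p = 0.0144). The PNMA sum was 386 ± 2.53 CPM in DAOY FSS and 377 ± 6.38 CPM in DAOY static and was not called (edgeR adjusted p = 0.467). PNMA3 was lost without DAOY FSS library 1 (0.48, edgeR adjusted p = 0.0616) or static library 3 (0.43, adjusted p = 0.0896). PNMA6A was lost without any 1 of FSS libraries 1 and 3 and static libraries 1 and 3 (edgeR adjusted p = 0.0554 to 0.0801), and PNMA1 without any 1 of FSS libraries 1 and 3 and static libraries 1 and 2 (adjusted p = 0.0512 to 0.138).

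PAGE5 had 141, 127 and 127 CPM in DAOY FSS and 124, 118 and 117 CPM in DAOY static. The groups did not overlap, and the log2 fold change was 0.13 (SE 0.054, edgeR adjusted p = 0.0473). It was lost with RLE scaling (edgeR adjusted p = 0.0565) and without any 1 of DAOY FSS libraries 1 and 2 and static libraries 2 and 3 (adjusted p = 0.0557 to 0.362, edgeR), and its log2 fold change was 0.07 without FSS library 1 (adjusted p = 0.362). XAGE1A and XAGE1B summed to 39.1 ± 0.551 CPM in DAOY FSS and 33.8 ± 2.27 CPM in DAOY static (SD, n = 3), a log2 fold change of 0.21 (edgeR adjusted p = 0.0279). That sum was lost without any 1 of DAOY FSS libraries 1 to 3 and static libraries 2 and 3 (edgeR adjusted p = 0.0515 to 0.162). The MAGEB and MAGEC sums averaged 106 ± 3.01 and 74.5 ± 3.95 CPM in DAOY FSS and 107 ± 6.29 and 71.5 ± 2.88 CPM in DAOY static, and neither was called.

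SSX2IP and CTAGE4, which match these names without belonging to the antigen families, fell in DAOY. SSX2IP (chr1:84643707-84690803) had 79.5, 80.3 and 80.3 CPM in DAOY FSS and 97.8, 98.0 and 99.1 CPM in DAOY static, and 144, 144 and 149 CPM in ONS76 FSS and 152, 150.1 and 146 CPM in ONS76 static. The DAOY groups lay well apart and the ONS76 groups overlapped. The DAOY log2 fold change was -0.30 (SE 0.038, edgeR adjusted p = 1.20e-07). CTAGE4 had 2.78, 3.52 and 2.87 CPM in DAOY FSS and 5.06, 4.17 and 5.33 CPM in DAOY static. These groups did not overlap, and the log2 fold change was -0.66 (SE 0.18, edgeR adjusted p = 0.00354).

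Among the 11 GAGE genes in DAOY, GAGE2A, GAGE12C and GAGE12D each had 1 library far from the others, whereas GAGE1, GAGE12J and GAGE13 lay between 26.0 and 29.7, 11.7 and 13.0, and 14.5 and 16.5 CPM over all 6 libraries. GAGE2A had 95.3, 92.4 and 87.7 CPM in DAOY FSS and 96.6, 143 and 311 CPM in DAOY static. The FSS libraries lay together, whereas static library 3 held the highest value and static library 1 was close to FSS. The log2 fold change was -0.998 (SE 0.19, edgeR adjusted p = 7.37e-05), and it was -0.39 without static library 3 (adjusted p = 0.000776). The sum of GAGE2A and GAGE2E fell by 0.89 (edgeR adjusted p = 0.000139) and by 0.32 without static library 3 (adjusted p = 0.00258). GAGE2E alone averaged 13.9 CPM in DAOY FSS and 12.1 CPM in DAOY static, so that the fall was that of GAGE2A. Both genes share more stretches with GAGE12F (47.8% of GAGE2A and 100% of GAGE2E) than with any other gene. Their sum therefore does not pool all copies that may exchange reads. The sum of all GAGE rows fell by 0.47 (adjusted p = 0.00282), and without static library 3 its log2 fold change was -0.11 and was not called (edgeR adjusted p = 0.235).

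GAGE12D had 2.43, 2.82 and 8.11 CPM in DAOY FSS and 2.43, 2.15 and 3.30 CPM in DAOY static. Only FSS library 3 stood above the static range. The call as higher (0.75, SE 0.27, edgeR adjusted p = 0.0272) was gone without FSS library 3 (0.0085, adjusted p = 0.985) and was lost without static library 1 (0.69, edgeR adjusted p = 0.0771) or 2 (0.62, adjusted p = 0.122). GAGE12C, with no stretch of its own, had 2.27, 2.14 and 7.31 CPM in DAOY FSS and 2.12, 2.36 and 2.48 CPM in DAOY static. In ONS76 it had 59.9, 68.3 and 124 CPM in FSS and 73.2, 62.1 and 65.0 CPM in static. FSS library 3 was the highest in both lines, and GAGE12C was not called in either. The sum of GAGE12 copies was 60.3 ± 11.5 CPM in DAOY FSS and 54.1 ± 2.25 CPM in DAOY static and was not called (edgeR adjusted p = 0.152).

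**Figure D4:**
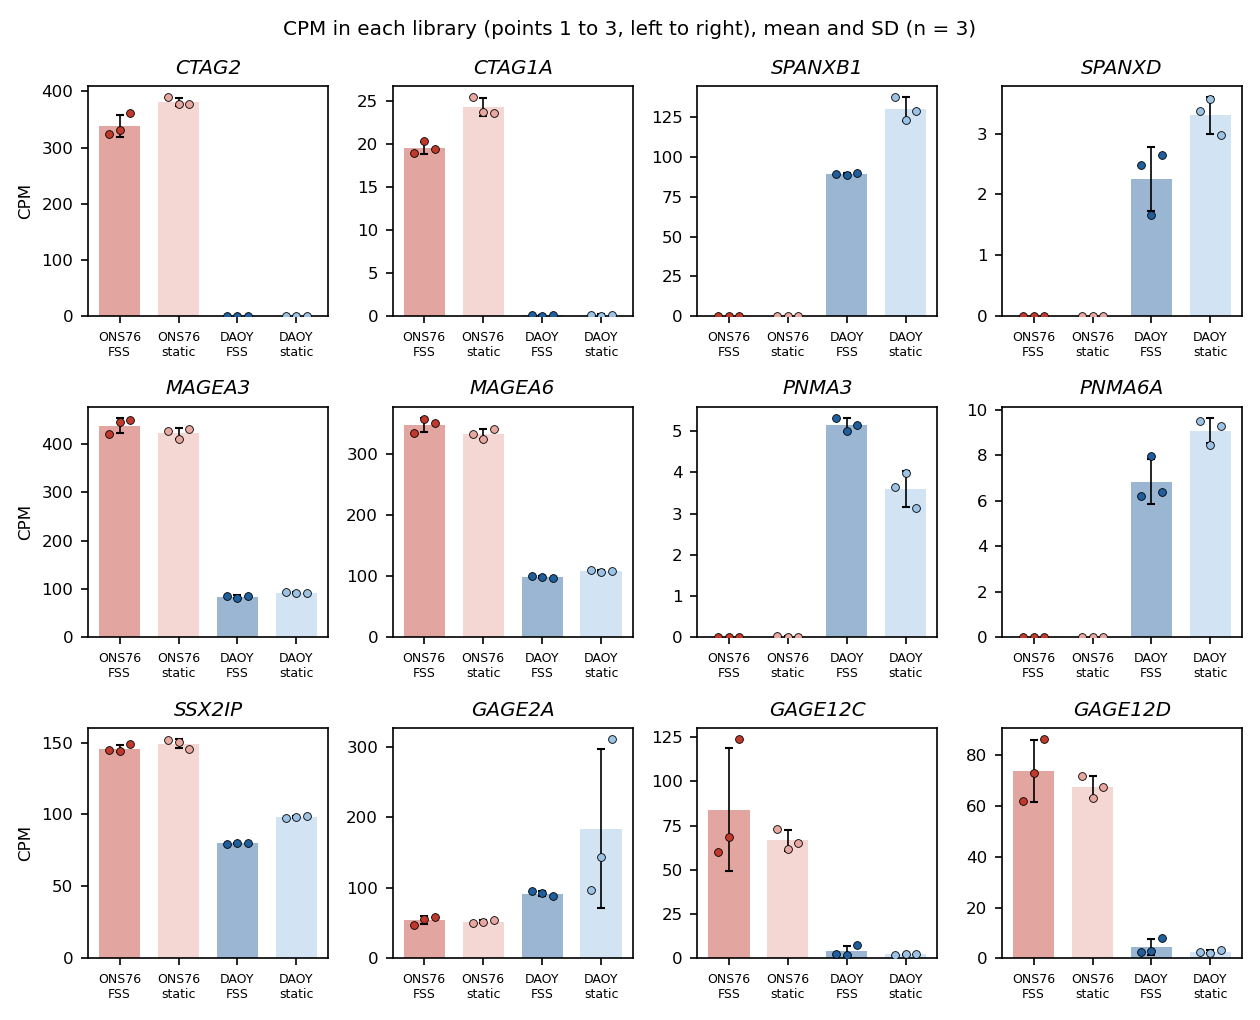
CPM (vertical axes) of 12 members in the 3 libraries of ONS76 FSS, ONS76 static, DAOY FSS and DAOY static, as points with the bar at the mean and the whisker at the SD (n = 3). SPANXB1, MAGEA3 and MAGEA6 points of DAOY FSS all lie below DAOY static, whereas GAGE2A spreads widely in DAOY static (up to 311 CPM) and 1 GAGE12D library of DAOY FSS stands alone (8.11 CPM).

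The FSS responses of the lines were compared in the same fit, as the DAOY log2 fold change minus that of ONS76. It was called larger for 3 of 52 members, against 8.34% of all genes, and smaller for 4, against 10.7% (19.1% in either direction). Without the members that met the count rule through 1 group, MAGEB17 among the larger ones, 2 of 49 were larger and 4 smaller. SSX2IP differed by -0.26 (SE 0.053, edgeR adjusted p = 0.000424), with log2 fold changes of -0.30 in DAOY and -0.03 in ONS76. That call held under all alternative settings. MAGEA3 and MAGEA6 each differed by -0.19 (SE 0.054 and 0.053, edgeR adjusted p = 0.0117 and 0.00815). Those 2 calls were lost only without static ONS76 libraries 1 and 2 (-0.17 for each, edgeR adjusted p = 0.0989 and 0.0976). GAGE2A differed by -1.06 (SE 0.28, edgeR adjusted p = 0.00646), and by -0.44 without DAOY static library 3 (edgeR adjusted p = 0.0107). Its call was lost with DESeq2 (adjusted p = 0.121) and without static ONS76 libraries 1 and 2. MAGEA9 differed by 1.45 (SE 0.45, edgeR adjusted p = 0.0201), a call lost without DAOY FSS library 2 (1.01, adjusted p = 0.178) or 3 (1.36, adjusted p = 0.0592) or static library 1 (1.43, edgeR adjusted p = 0.0502). PNMA1 differed by 0.16 (SE 0.055, edgeR adjusted p = 0.0400), a call lost under 14 of the alternative settings (0.13 to 0.16), among them RLE scaling (adjusted p = 0.0561, edgeR). PNMA1 had 78.3, 77.2 and 80.05 CPM in ONS76 FSS and 80.4, 82.8 and 81.7 CPM in ONS76 static, lower in each FSS library but not called. The CTAG sum and the SPANX sum were not called as different between lines (edgeR adjusted p = 0.627 and 0.533), and in each case 1 line held next to none of the family. Sums called as different were GAGE (-0.54, edgeR adjusted p = 0.028), GAGE2 copies (-0.93, adjusted p = 0.00756), MAGEA3/MAGEA6 (-0.19, adjusted p = 0.00695) and MAGEA9/MAGEA9B (1.21, adjusted p = 0.0138). The XAGE sum was also called (5.22, edgeR adjusted p = 0.00559), with next to no counts in ONS76. These differences of sums were not recomputed under the alternative settings.

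Genes of neighbouring pathways were counted in lists, beside 14.1% of all genes that rose and 13.9% that fell in ONS76 and 19.5% and 20.1% in DAOY; no list was tested as a set. Of 44 tested cancer-testis genes outside the rule, 1 (2.27%) rose and 8 (18.2%) fell in ONS76 and 5 (11.4%) rose and 11 (25.0%) fell in DAOY, with medians of -0.03 and -0.07 (all genes 0 and 0.0021). KIF2C and TTK, genes of cell division, were among the fallen genes with the smallest p in both lines. KIF2C, a kinesin that depolymerises microtubules, fell to 26.4 ± 0.288 TPM in ONS76 FSS, against 44.2 ± 1.43 TPM in ONS76 static, and to 65.8 ± 2.89 TPM in DAOY FSS, against 105.6 ± 2.84 TPM in DAOY static (SD, n = 3). Its log2 fold changes were -0.77 and -0.68 (edgeR adjusted p = 2.82e-13 and 1.99e-13). TTK, the spindle checkpoint kinase, changed by -0.39 in ONS76 and -0.43 in DAOY, and ATAD2 by -0.32 and -0.38. Among 9 MAGE genes that are widely expressed, 3 (33.3%) rose and 2 (22.2%) fell in each line, with medians of 0.36 and 0.07. MAGEH1 rose by 0.43 in ONS76 and MAGED4B by 0.27 in DAOY (edgeR adjusted p = 0.0132 and 1.47e-05), while MAGED1 fell by 0.56 in ONS76 and by 0.77 in DAOY (edgeR adjusted p = 2.54e-10 and 3.57e-15).

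Of 15 tested partners and substrates of MAGE ubiquitin ligases, 7 (46.7%) rose and 1 (6.67%) fell in ONS76, and 7 (46.7%) rose and 3 (20%) fell in DAOY, with medians of 0.12 and 0.14. HSPA1A, an inducible heat-shock chaperone, had 478 ± 15.0 TPM in ONS76 FSS and 246 ± 5.32 TPM in ONS76 static, and 358 ± 20.9 TPM in DAOY FSS and 148.5 ± 6.62 TPM in DAOY static. Its log2 fold changes were 0.93 and 1.27 (edgeR adjusted p = 6.77e-17 and 1.65e-20). NSMCE4A, a subunit of the SMC5/6 complex, fell by 0.38 in ONS76 and by 0.82 in DAOY. Of 12 tested Gag-derived genes outside the rule, 1 (8.33%) rose and 0 fell in ONS76, and 3 (25.0%) rose and 3 (25.0%) fell in DAOY, with medians of 0.00 and -0.05. ARC, a neuronal Gag-like gene, rose by 1.00 in ONS76 and by 1.38 in DAOY, and PEG10 by 0.86 in DAOY.

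Of 39 tested genes of DNA methylation and of germline promoter silencing, 14 (35.9%) rose and 12 (30.8%) fell in ONS76, and 10 (25.6%) rose and 13 (33.3%) fell in DAOY, with medians of 0.08 and -0.02. UHRF2, a reader of modified cytosine, had 103 ± 3.86 TPM in ONS76 FSS and 69.5 ± 0.440 TPM in ONS76 static, and 81.0 ± 2.21 TPM in DAOY FSS and 57.9 ± 2.75 TPM in DAOY static. EZH2, the H3K27 methyltransferase, fell by 0.50 in ONS76 (edgeR adjusted p = 2.41e-11), HELLS, a remodeller needed for DNA methylation, by 0.95 in DAOY (adjusted p = 3.29e-10), and DNMT1, the maintenance methyltransferase, by 0.12 in ONS76 and 0.23 in DAOY. Of 8 tested factors reported to bind MAGE promoters, 1 (12.5%) rose and 1 (12.5%) fell in ONS76 and 2 (25.0%) rose and 2 (25.0%) fell in DAOY, with medians of 0.06 and 0.01; CTCF rose by 0.13 and 0.16, ETS1 fell by 0.22 in ONS76 and SP1 by 0.30 in DAOY. Germ cell markers had 0 rising and 1 falling of 7 tested in ONS76 and 2 and 0 in DAOY. Medulloblastoma markers had 3 and 1 of 14 in each line, and fibroblast markers 3 and 1 of 9 in ONS76 and 3 and 2 in DAOY.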

How the data were processed

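RNA of 12 libraries (3 per group, 4 groups) was collected after 18 h and sequenced as poly(A)-selected, directional paired-end libraries, per the labels' protocols. The authors deposited raw counts per gene and TPM (transcripts per 1000000) for the same genes. Per the submitters' processing notes, HISAT2 2.2.1, featureCounts and GRCh38 were used. Which annotation and strand setting featureCounts was given is not known from these sources, so reads of overlapping or near-identical genes may be shared. Of the 52 members with annotated exons, 45 overlap no exon of another gene and none is over 50% covered.

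Counts were tested with edgeR 4.0.16 (R 4.3.3) by the quasi-likelihood F test, two-sided, on TMM factors, in 1 fit of all 12 libraries with 1 mean per group, after filterByExpr left 19631 genes. Benjamini-Hochberg adjustment covered all of them, at a threshold of 0.05. The biological coefficient of variation was 4.87%. Each SE is the absolute log2 fold change over the square root of F. CPM use the TMM-scaled library sizes. Family sums replaced the rows of a stem, or of a set of near-identical copies, by their sum. The GAGE2 and GAGE12 sets were formed by name, and reads may also be shared between them. Levels are deposited TPM, compared between genes per length. The members and lists were chosen with earlier results of these data known. Library values are printed for members with a mean of at least 1 CPM in a group that passed the test under FSS or in the difference of responses, and for the 5 members with the highest mean TPM in each line. A bound for a group at 0 uses 3 counts over the group and, like any share of counts, covers counting error only. The same results were recomputed with DESeq2 1.42.0, with RLE or upper-quartile factors, with the replicate number as a block, with no filter, with a filter of 1 CPM in 3 libraries, with each line fitted alone, with limma 3.58.1 on log2(TPM + 1) and log2(TPM + 0.1), without each library in turn, and, chosen after the data were seen, without static ONS76 libraries 1 and 2. Promoters (RefSeq) and transcripts (GENCODE 29) served for description. Same-numbered FSS and static libraries deviated with correlations of -0.089 to 0.075, so the numbers do not pair them. No library pair of a group was within sampling noise (chi-square per degree of freedom 3.73 to 9.22).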

Additional observations from a re-analysis of the deposited data

Results flagged for a closer look

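For 7 members, the difference of the FSS responses (DAOY minus ONS76) passed an adjusted p under 0.05 in edgeR. SSX2IP, a centrosomal gene that matches the names without belonging to the antigen families, differed by -0.26. Its log2 fold changes were -0.30 in DAOY and -0.03 in ONS76. The ligase adaptors MAGEA3 and MAGEA6 each differed by -0.19 (-0.14 and -0.13 in DAOY, 0.05 and 0.06 in ONS76). GAGE2A differed by -1.06 (-0.998 in DAOY, 0.06 in ONS76), and by -0.44 without DAOY static library 3. The testis antigen gene MAGEA9 differed by 1.45 (1.24 in DAOY, -0.21 in ONS76) and PNMA1 by 0.16 (0.10 in DAOY, -0.06 in ONS76). MAGEB17 differed by 6.96, but it met the count rule through DAOY FSS alone and held 18 counts or fewer in each library.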

How the results depend on the processing

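In DAOY, 8 of the 15 called members stayed called under every alternative: SPANXB1, MAGEA3, MAGEA6, SSX2IP, CTAGE4 and GAGE2A, and MAGEB17 and XAGE3, whose direction the count rule fixed. In ONS76 none of the 3 did, and of the 7 called differences between lines 1 did (SSX2IP). The members that rose in ONS76 numbered 1 without a filter and 3 with limma on log2(TPM + 1) or log2(TPM + 0.1), against 0; those that fell numbered 0 and 1 on these scales and 1 without static ONS76 libraries 1 and 2, against 3. In DAOY 3 rose on log2(TPM + 0.1), against 6. Larger differences numbered 1 on log2(TPM + 0.1) and 1 without static ONS76 libraries 1 and 2, against 3. Smaller differences numbered 7 on log2(TPM + 1) and 1 without those libraries, against 4. Leaving out 1 library at a time gave 0 to 2 risen and 0 to 4 fallen members in ONS76, and 2 to 7 risen and 7 to 10 fallen in DAOY. It gave 2 to 4 larger and 4 smaller differences. Between static lines, 21 to 23 members were higher and 26 to 28 lower in ONS76. On log2(TPM + 1) the sign of the difference turned for CTAGE4 (-0.54) and XAGE3 (-1.32), both near 0 in ONS76; the cause was not tested. With the replicate number as a block, 0 members rose and 3 fell in ONS76 and 6 rose and 8 fell in DAOY; it changed no member's call other than that of SPANXD (adjusted p = 0.0614 in edgeR). Depth limits members under 1 CPM, whose calls rest on few counts.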

Other observations

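The sum of the XAGE rows passed the test in ONS76 (edgeR adjusted p = 0.00545) although it was at 0 CPM in all 3 FSS libraries and at 0.159, 0.111 and 0 CPM in the static libraries. GAGE12C was highest in FSS library 3 of both lines; without FSS library 3 its log2 fold change was -0.05 in ONS76 and -0.07 in DAOY.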
